A study of Mus musculus with 11 samples.

Results

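Opposite-strand transcripts are RNAs read from the DNA strand opposite a named gene, and their symbols in mouse annotation carry the sense gene's symbol followed by "os". Every row of the count files whose symbol ended in os with optional digits, and whose stem was also a row, was taken: 154 of 24421 rows, set against 147 sense partners. Some partners have several opposite-strand rows (Grip1 with Grip1os1 and Grip1os2, Kcnmb4 with Kcnmb4os1 and Kcnmb4os2, for example), so the rows are not independent of each other. The libraries came from the hippocampus of mouse offspring whose mothers had received particulate matter (PM) at 200 µg/kg, or normal saline (vehicle), through the nose during pregnancy on days 9, 12 and 15, with birth on day 21. Offspring tissue was taken at 14 to 18 weeks of age, and the labels used here give no strain or sex. There were 5 vehicle and 6 PM libraries in 2 sets of deposit. Set 1 comprised vehicle and PM replicates 1 to 3, and set 2 held PM replicates 4 to 6 with vehicle replicates 4 and 5. Whether each library is a separate animal or litter is not in the labels. The p-values therefore describe the spread among these samples, which may be technical.

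Antisense RNAs can act on the sense gene through chromatin, splicing, RNA stability or translation, can serve as host RNAs for microRNAs, or can be read without a known role of their own. Many are transcribed from the same promoter region as the sense gene but in the other direction, while others start inside an intron of the sense gene or run into its far end. Most are non-coding and of low abundance in brain, but a few os symbols name protein-coding genes, such as Wdr83os, which encodes Asterix, a subunit of a membrane protein insertion complex of the endoplasmic reticulum.

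In the GENCODE annotation of GRCm38, 150 of the 154 rows could be placed. Of these, 118 were typed antisense, 10 lincRNA, 10 protein coding and 8 processed transcript, with the remainder in smaller classes. Exons overlapped exons of the partner in 80 rows. In 36 rows the gene spans overlapped without any shared exon base, which places the antisense exons in sense introns in most cases. In 24 rows the starts lay within 5000 bases and pointed away from each other (divergent), in 8 the ends faced each other (tail to tail), and 2 lay apart. RefSeq promoter windows of 300 bases (250 before the start to 50 after it, GRCm38.p6) were found for 121 rows. Their median number of CG dinucleotides was 8, against 7 for all 32851 windows in that table. Windows of 4 rows are shown because they mark both ends of the pattern described further on. Trpc5os and Dnm3os lie wholly in introns of long sense genes and were far lower in PM libraries, whereas Fam120aos and Cep83os are divergent from their partners and did not pass the test (with a trend on transcript length and GC content removed, both did, in opposite directions). The capitals mark each CG dinucleotide, and each window is read 5′ to 3′ on the antisense gene's own strand. They are chrX:144456332-144456631 (plus strand), chr1:162217373-162217672 (plus strand), chr13:48967862-48968161 (plus strand) and chr10:94688564-94688863 (minus strand).
Trpc5os: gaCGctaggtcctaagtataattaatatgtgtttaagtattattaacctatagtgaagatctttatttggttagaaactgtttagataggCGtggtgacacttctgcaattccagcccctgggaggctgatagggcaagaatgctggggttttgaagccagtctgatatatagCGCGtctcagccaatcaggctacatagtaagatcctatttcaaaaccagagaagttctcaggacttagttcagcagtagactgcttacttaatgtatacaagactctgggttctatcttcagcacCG
Dnm3os: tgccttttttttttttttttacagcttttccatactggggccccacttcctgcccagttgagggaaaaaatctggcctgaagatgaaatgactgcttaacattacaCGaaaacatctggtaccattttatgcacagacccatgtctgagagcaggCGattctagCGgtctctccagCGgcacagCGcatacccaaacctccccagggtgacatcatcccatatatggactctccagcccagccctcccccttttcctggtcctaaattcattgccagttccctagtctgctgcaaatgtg
Fam120aos: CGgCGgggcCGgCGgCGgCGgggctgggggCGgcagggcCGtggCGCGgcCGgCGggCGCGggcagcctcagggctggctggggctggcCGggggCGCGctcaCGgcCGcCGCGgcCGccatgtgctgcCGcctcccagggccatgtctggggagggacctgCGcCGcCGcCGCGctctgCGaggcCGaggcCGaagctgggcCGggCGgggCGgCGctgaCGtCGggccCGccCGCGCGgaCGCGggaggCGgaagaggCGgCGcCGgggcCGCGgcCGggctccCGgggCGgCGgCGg
Cep83os: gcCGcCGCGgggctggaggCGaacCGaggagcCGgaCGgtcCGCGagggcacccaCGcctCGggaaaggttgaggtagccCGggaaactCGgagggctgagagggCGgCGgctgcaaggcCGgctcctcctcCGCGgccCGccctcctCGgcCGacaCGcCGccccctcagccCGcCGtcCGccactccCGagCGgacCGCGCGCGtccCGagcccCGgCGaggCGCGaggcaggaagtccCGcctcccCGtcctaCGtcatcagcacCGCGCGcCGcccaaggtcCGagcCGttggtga

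The Trpc5os and Dnm3os windows held 5 CG dinucleotides each, at 41.3% and 48.7% G plus C. The Fam120aos window held 54 and the Cep83os window 46, at 86.7% and 76.7% G plus C. Both of these contained GGGCGG, searched on both strands and present in 35.7% of all windows. The Trpc5os window contained CCAAT, present in 37.4% of all windows on either strand. TATAAA, present in 13.6% of all windows, was in none of the 4. A match is a description of letters in the window and not a measured binding site.

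Counts assigned to genes ranged from 6012116 to 12496651 in vehicle and from 10938521 to 17763893 in PM libraries. Scaled counts (CPM, the count of a row divided by the TMM-scaled library size in units of 10 to the power 6) summed over the 154 antisense rows were 581.4 to 642.1 in vehicle and 402.3 to 461.4 in PM libraries, with no overlap. Between 115 and 127 of the rows had a count in each vehicle library, and between 93 and 121 in each PM library. The groups also differed in composition. The share of counts outside any annotated feature was 60.89% to 61.99% for vehicle, 18.79% to 21.43% for PM in set 1 and 29.31% to 33.97% for PM in set 2. No source used here states whether counting used strand. Reads of a gene and of its antisense partner therefore cannot be told apart where they overlap. Reads that matched more than 1 gene were 1.616 to 1.707 per 100 gene counts in vehicle and 1.854 to 2.293 in PM libraries. Hippocampal neuron markers were all detected, with 4 of 8 higher and 2 lower in PM. The higher ones were Calb1, Spink8, Crym and Slc17a7 (log2 fold changes 0.50, 1.32, 1.285 and 0.57). The lower ones were Prox1 of dentate granule cells (-1.97) and Neurod6 (-0.72). Ttr, the transthyretin gene of choroid plexus, exceeded 200 CPM in 4 libraries (vehicle replicates 2 and 5, PM replicates 1 and 3). Summed CPM of 4 markers of the adjacent cortex was 264.4 to 307.8 in vehicle and 115 to 150.8 in PM libraries, with 3 of 4 lower, Lamp5 higher (log2 fold change 0.75) and none at 0. Its part in the results was not tested. In bulk tissue, fewer cells of a type and less RNA per cell cannot be told apart.

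Of the 154 antisense rows, 76 had enough counts to be tested, and 78 did not. Among the 76, 8 were higher in PM and 47 lower, and 21 did not pass (edgeR quasi-likelihood test with Benjamini-Hochberg adjustment over all rows, threshold 0.05). Of all 14982 rows tested, 32.7% were higher and 36.4% lower, and 69.1% changed in either direction, so the share of antisense rows called higher was below and the share called lower above that background. The median log2 fold change was -1.29 for the tested antisense rows and -0.04 for all rows tested. A decrease of more than 4-fold was found for 28 of the 76, against 5.33% of all rows. The groups did not overlap, with PM below vehicle, in 38 of the 76 (28.1% of all rows), and with PM above vehicle in 5 (24.3% of all rows). Without vehicle replicate 3, 5 antisense rows were higher, and without the 4 libraries above 200 CPM of Ttr 5 were higher and 41 lower. The filter bears on these counts, because 33 of the 76 passed it through the vehicle libraries alone. Such rows reached the limit in too few PM libraries to pass on those alone, which favours lower values in PM. Of the 33, 31 were lower. Another 2 (Abhd11os and Map2k3os) passed through PM libraries alone, and both were higher. Among all rows that passed through vehicle libraries alone, 85.6% were lower. The 35 antisense rows that passed in both groups held 6 higher (17.1%) and 14 lower (40%), with a median of -0.27. Of all rows that passed in both groups 35% were higher and 34.7% lower, so the lower share was near its background. That route leaves out rows with low values in PM libraries, from the antisense share and from that of all rows. Fitted with no filter, 141 rows had a count in some library. Of these 11 were higher, 59 were lower and 71 did not pass, where 27.1% of all 20519 rows were higher and 27.4% lower.

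The sense partners had a median nearer 0 than the 76 antisense rows, of which 33 passed the filter through vehicle libraries alone. The 35 antisense rows that passed in both groups had a median of -0.27, close to that of the partners. Of 119 partners tested, 29 were higher, 57 lower and 33 did not pass, with a median of -0.32. Only 3 partners were lower by more than 4-fold. Of 75 pairs in which both rows were tested, both were lower in 26, the antisense row was lower and the sense row higher in 9, and the antisense row was lower while the sense row did not pass in 12. The antisense row was higher with a higher partner in 3 pairs, with a lower partner in 3 and with a partner that did not pass in 2. Across these 75 pairs the log2 fold changes of antisense and sense row had a Spearman correlation of 0.23 (Pearson 0.26), a description over pairs that share the same libraries and scaling. With the trend of fold change on transcript length and GC content removed, the partners gave 35 higher and 36 lower with a median of -0.04. The antisense rows, again including those that passed through vehicle libraries alone, gave 9 higher and 49 lower with a median of -1.23.

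**Figure D1:**
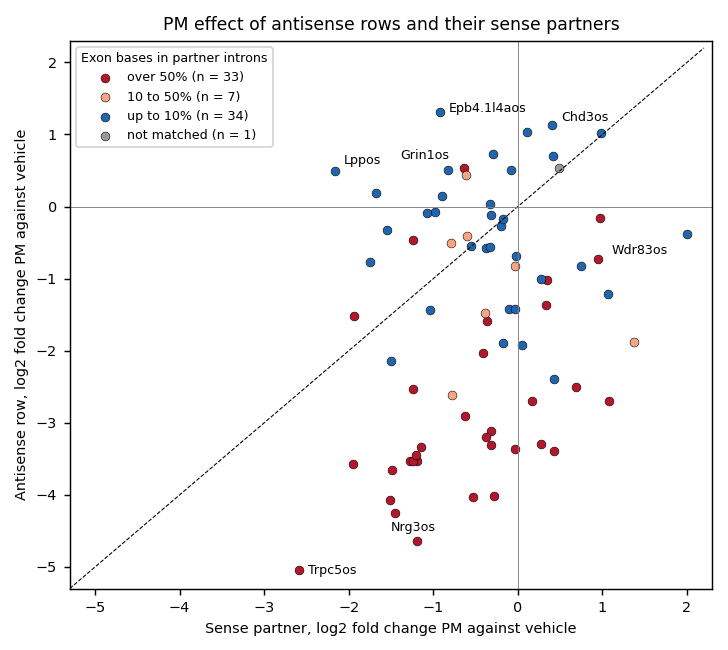
Log2 fold change (PM against vehicle) of each antisense row (vertical axis) against that of its sense partner (horizontal axis) for 75 pairs with both rows tested. Colour gives the percent of the antisense row's exon bases that lie in introns of the partner, and the dashed line marks equal change. Most rows with over 50% of exon bases in partner introns lie far below the line, and 25 of these 33 passed the filter through vehicle libraries alone.

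Rows lying in introns of the sense gene were lower more often than rows outside them, in a grouping chosen after the values were seen. With no filter, 39 of 53 rows with over 50% of their own exon bases in partner introns were lower and none higher. Of 63 rows with up to 10%, 14 were lower and 10 higher, and of 22 rows in between 6 were lower and 1 higher. In the same fit 27.4% of all 20519 rows were lower and 27.1% higher, so the lower share was above that background only in the group with over 50%. The difference between these shares was not tested.

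Among the tested rows the filter enters this pattern. Over 75 tested rows with an annotation, the percent of exon bases in partner introns had a Spearman correlation of -0.72 with the log2 fold change (Pearson -0.77), and the rows share libraries, depth and the filter. Of 33 rows with over 50%, 28 were lower, none was higher and 5 did not pass (Frs3os, Grin1os, Rab26os, Tnk2os and Ube4bos3), but 25 of the 33 had passed the filter through vehicle libraries alone. Among the 34 annotated rows that passed in both groups the correlation was -0.28, at -0.41 in set 1 and -0.08 in set 2. Of these, 5 rows had over 50% of exon bases in introns, with medians of -1.48 in set 1 and -0.38 in set 2. The 24 with up to 10% had medians of -0.03 and -0.19. The correlation was thus weaker among rows that passed in both groups than over the 75 rows. Passing in both groups itself leaves out rows with low values in PM, so these correlations are no test of the filter's part in the pattern.

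The share of counts with no feature was higher in vehicle than in PM libraries in each set, and PM libraries of set 2 lay between PM libraries of set 1 and vehicle libraries. Its part in the result was not tested. The shorter row of other opposite-strand pairs in the annotation, named without the os ending, was read from the same fit. Of 376 such rows whose span overlapped a partner without a shared exon base, 84 were higher and 213 (56.6%) lower, with a median of -0.69. Of 933 divergent rows, 456 were higher and 201 (21.5%) lower, with a median of 0.30. Of all rows tested, 32.7% were higher and 36.4% lower. How the shorter rows of these other pairs passed the filter was not examined.

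**Figure D2:**
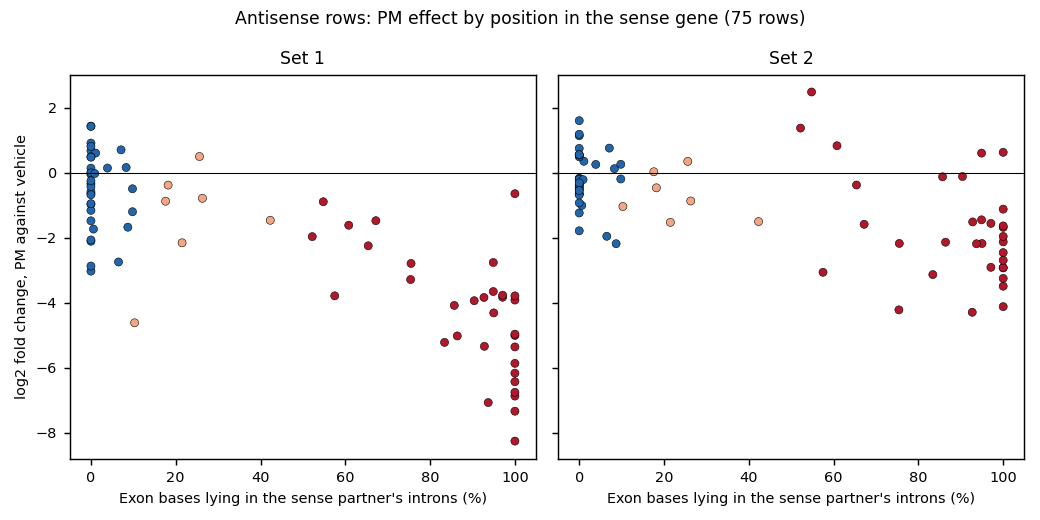
Log2 fold change of 75 tested antisense rows (vertical axis) against the percent of their exon bases that lie in introns of the sense partner (horizontal axis), in set 1 and set 2. Blue is up to 10%, light orange 10% to 50% and red over 50%. The red group lies lower in set 1 than in set 2, and 25 of its 33 rows passed the filter through vehicle libraries alone.

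The promoter windows of the rows separated by the same measure. Rows with up to 10% of exon bases in partner introns had a median of 17 CG dinucleotides in 53 windows, and 29 of these windows contained GGGCGG. Rows with over 50% had a median of 5 in 41 windows, and 3 contained GGGCGG. Those in between had a median of 15 in 17 windows, and 5 contained GGGCGG. Rows with no count in any library were left out. The window of a divergent row can cover the start of the partner as well, as those of Fam120aos and Cep83os do. The part of this overlap in the CG counts was not tested.

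Trpc5os had the largest fall among tested rows. Trpc5os and the other 9 of the 10 largest falls all passed the filter through vehicle libraries alone. Low values in some PM libraries are part of how that route is defined, though they were not needed for entry. The levels of these rows are given chiefly as a description. Trpc5os, typed protein coding, lies on the plus strand at chrX:144456581-144477066 (GRCm38). Its 4 exons lie wholly in introns of Trpc5, which encodes a calcium-permeable cation channel of neurons. Its level was 3.96, 6.61, 6.42, 5.23 and 6.70 CPM in vehicle replicates 1 to 5, and 0.122, 0, 0, 0.445, 0.291 and 0.266 CPM in PM replicates 1 to 6. Every PM library was below every vehicle library, and 2 PM libraries of set 1 held no count. The log2 fold change was -5.05 (SE 0.43, edgeR adjusted p = 2.353e-07). Trpc5 itself fell from 56.7 ± 2.78 CPM (SD, n = 5) to 9.34 ± 2.91 CPM in the 6 PM libraries (± gives the SD over 5 vehicle or 6 PM libraries throughout), with a log2 fold change of -2.59 (SE 0.15, edgeR adjusted p = 1.02e-08).

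Nrg3os lies in introns of Nrg3, a gene spanning 1104137 bases that encodes neuregulin 3, a ligand of the receptor ErbB4. Nrg3os was 19.6, 20.2, 17.4, 17.6 and 15.5 CPM in vehicle replicates 1 to 5, and 0.365, 0.177, 0.0716, 2.23, 1.31 and 3.10 CPM in PM replicates 1 to 6. The groups did not overlap, and the PM libraries of set 2 all lay above those of set 1. Nrg3os fell with a log2 fold change of -4.25 (SE 0.48, edgeR adjusted p = 5.25e-06), and Nrg3 with one of -1.46 (SE 0.069, edgeR adjusted p = 2.519e-09). The difference between sets in Nrg3os passed the test (set 1 -6.43, set 2 -2.92, edgeR adjusted p = 0.0001273), whereas that in Nrg3 did not (adjusted p = 0.5124).

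Dnm3os (chr1:162217623-162225550, plus strand, 4 exons) is known as the host RNA of the microRNAs miR-199a and miR-214, and lies in introns of Dnm3, which encodes dynamin 3, a GTPase of vesicle fission at synapses. It was 20.4, 19.8, 15.6, 22.1 and 18.2 CPM in vehicle replicates 1 to 5, and 0.304, 0.886, 0.501, 3.12, 2.98 and 4.96 CPM in PM replicates 1 to 6. Each PM library was again below each vehicle library, with set 2 above set 1. It fell with a log2 fold change of -3.58 (SE 0.39, edgeR adjusted p = 3.18e-06). After removal of the length and GC trend this was -2.27 (SE 0.41, adjusted p = 0.0003409). Dnm3 fell from 258 ± 9.28 to 66.9 ± 14.6 CPM, a log2 fold change of -1.95 (SE 0.12, edgeR adjusted p = 1.919e-08).

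Grip1os1 and Grip1os2 share the partner Grip1, a scaffold protein that binds AMPA-type glutamate receptors, and both lie wholly in its introns. Grip1os2 was 3.26 to 6.02 CPM in vehicle libraries (median 5.38). In PM it was 0.0608, 0 and 0 CPM in set 1 and 0.519, 0.218 and 0.620 CPM in set 2. Grip1os1 was 2.09 to 3.89 CPM in vehicle (median 3.25), and 0, 0 and 0.0716 CPM in PM set 1 against 0.816, 0.728 and 0.354 CPM in PM set 2. For both rows every PM library was below every vehicle library. The log2 fold changes were -4.64 for Grip1os2 (SE 0.50, edgeR adjusted p = 2.295e-06) and -3.54 for Grip1os1 (SE 0.59, edgeR adjusted p = 0.0001269). Grip1 fell by less, from 51.0 ± 3.67 to 22.6 ± 4.40 CPM (log2 fold change -1.20 with SE 0.12, edgeR-adjusted p = 1.309e-06). A count of 0 allows up to 3 counts, which is 0.1773 to 0.4904 CPM across the libraries, and this floor covers counting error only.

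The other falls among the 10 largest were of the same kind. Arhgap20os lies mainly in introns of Arhgap20. It was 3.74 to 6.14 CPM in vehicle against 0.0591 to 0.620 CPM under PM (log2 fold change -4.07 with SE 0.36, edgeR-adjusted p = 3.478e-07). Far1os lies opposite Far1, an enzyme of ether lipid synthesis, and was 8.79 to 13.2 CPM in vehicle against 0.215 to 1.34 CPM under PM (log2 fold change -4.03 with SE 0.30, edgeR-adjusted p = 6.127e-08). Its fall was close in the sets, at -3.84 in set 1 and -4.29 in set 2, and no difference between them was detected (adjusted p = 0.603). Bcas3os1 was 5.61 to 7.68 CPM in vehicle, and 0.304, 0 and 0 CPM in PM set 1 against 0.445, 0.946 and 1.42 CPM in PM set 2 (log2 fold change -4.02 with SE 0.50, edgeR-adjusted p = 8.379e-06). Bach2os, opposite the transcriptional repressor gene Bach2, was 1.81 to 2.97 CPM in vehicle against 0 to 0.295 CPM under PM (log2 fold change -3.65, edgeR adjusted p = 4.158e-06). Rsf1os1, opposite the chromatin remodelling gene Rsf1, was 1.10 to 1.64 CPM in vehicle against 0 to 0.354 CPM under PM (log2 fold change -3.53, edgeR adjusted p = 4.055e-05). In each of these 5 rows all PM libraries were below all vehicle libraries. The partners fell by less, with log2 fold changes of -1.52 for Arhgap20, -0.54 for Far1, -0.28 for Bcas3, -1.49 for Bach2 and -1.24 for Rsf1. With the trend removed Far1 and Rsf1 changed sign, to 0.21 and 0.30, both past the threshold in edgeR (adjusted p = 0.01475 and 0.006437), while Far1os stayed at -3.89 and Rsf1os1 at -2.74.

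**Figure D3:**
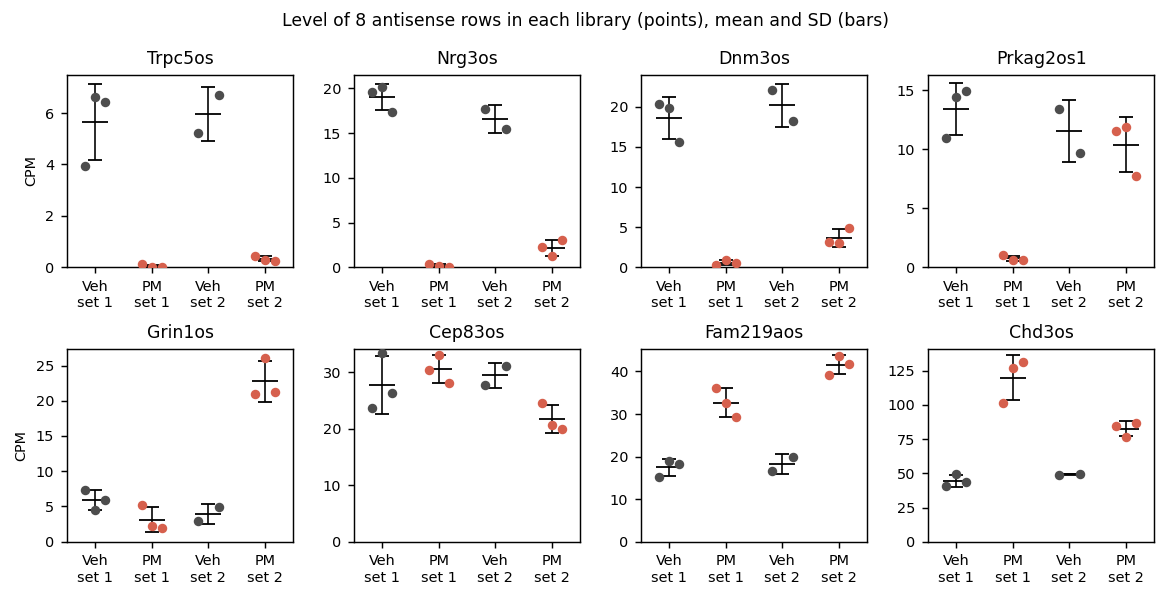
CPM of 8 antisense rows in each library (points, vehicle grey and PM red), with mean and SD as bars, by group and set on linear axes that start at 0. Trpc5os, Nrg3os and Dnm3os were lower in PM in both sets, Prkag2os1 in set 1, Fam219aos and Chd3os higher in both sets, and Grin1os higher in set 2.

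A minority of rows was higher in PM, and none of the 8 had over 10% of its exon bases in partner introns. Chd3os, a row typed protein coding that runs tail to tail with the chromatin remodeller gene Chd3, was 40.5, 49.4, 43.5, 48.9 and 49.6 CPM in vehicle replicates 1 to 5. In PM replicates 1 to 6 it was 101, 127, 131, 85.0, 76.5 and 86.6 CPM. No PM library overlapped the vehicle libraries, and set 1 lay above set 2 in PM. Chd3os rose 2.19-fold (log2 fold change 1.13 with SE 0.13, edgeR-adjusted p = 4.305e-06). Chd3 rose less, from 686 ± 57.5 to 907 ± 81.4 CPM (log2 fold change 0.41 with SE 0.086, edgeR-adjusted p = 0.0008696). The antisense to sense ratio of this pair was also higher (0.72 on the log2 scale, SE 0.17, limma adjusted p = 0.001712).

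Fam219aos, with 66.2% of its exon bases over exons of Fam219a, was 15.1 to 19.9 CPM in vehicle (median 18.2) and 36.2, 32.7, 29.2, 39.3, 43.8 and 41.9 CPM in PM replicates 1 to 6. The groups were apart in both sets, and Fam219aos rose 2.04-fold (log2 fold change 1.03 with SE 0.10, edgeR-adjusted p = 1.229e-06). Its partner did not pass, at 73.8 ± 8.84 CPM in vehicle against 79.3 ± 6.95 CPM under PM (log2 fold change 0.11 with SE 0.095, adjusted p = 0.3259). With the trend removed Fam219a was -0.31 (edgeR adjusted p = 0.04216) and Fam219aos 0.66 (adjusted p = 0.0001596).

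Epb4.1l4aos runs tail to tail with Epb4.1l4a, a member of the band 4.1 family of membrane skeleton proteins. It was 2.85, 2.896, 1.99, 3.60 and 2.31 CPM in vehicle replicates 1 to 5, and 5.47, 6.74, 8.74, 6.75, 6.99 and 5.13 CPM in PM replicates 1 to 6. All PM libraries were above all vehicle libraries. Epb4.1l4aos rose 2.47-fold (log2 fold change 1.31 with SE 0.19, edgeR-adjusted p = 4.332e-05), the largest rise among tested antisense rows, while Epb4.1l4a fell from 11.8 ± 1.43 to 6.33 ± 1.46 CPM (log2 fold change -0.92 with SE 0.16, edgeR-adjusted p = 0.0002203).

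Sp3os, mostly outside the transcription factor gene Sp3, was 5.07 to 7.03 CPM in vehicle against 8.41 to 11.9 CPM under PM. It rose without overlap between groups (log2 fold change 0.73 with SE 0.14, edgeR-adjusted p = 0.0003576), while Sp3 was lower (log2 fold change -0.29, edgeR adjusted p = 0.01083), which became 0.21 with the trend removed (adjusted p = 0.02508). Slc7a6os, typed protein coding and tail to tail with the amino acid transporter gene Slc7a6, was 12.6 to 16.0 CPM in vehicle against 19.0 to 25.3 CPM under PM. It rose by 0.51 on the log2 scale (SE 0.10, edgeR adjusted p = 0.0004909), and its effect was 0.48 in set 1 and 0.56 in set 2. Its partner was -0.77 in set 1 and 0.83 in set 2, a difference that passed the test (edgeR adjusted p = 6.946e-05).

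The remaining 3 rises were of low level, and their calls changed with single libraries or settings. Abhd11os and Map2k3os passed the filter only through PM libraries, where they are high. Abhd11os was 0.181 to 0.871 CPM in vehicle against 0.716 to 1.97 CPM under PM (log2 fold change 1.01 with SE 0.39, edgeR-adjusted p = 0.03186). Its call was lost without vehicle replicate 3, 4 or 5, or PM replicate 2 or 5, with adjusted p from 0.05605 to 0.09224. Abhd11 rose to a like extent (log2 fold change 0.98). Map2k3os, divergent from the p38 pathway kinase gene Map2k3 with starts 166 bases apart, was 0.723 to 1.14 CPM in vehicle against 1.09 to 1.70 CPM under PM (log2 fold change 0.71, edgeR adjusted p = 0.01557). Kcnmb4os2, whose start lies 715 bases from that of Kcnmb4, a subunit of large-conductance potassium channels, was 2.53 to 4.07 CPM in vehicle against 3.42 to 5.66 CPM under PM (log2 fold change 0.50, edgeR adjusted p = 0.01816). In all 3 rows the groups overlapped. Without vehicle replicate 3, neither Map2k3os (adjusted p = 0.05098) nor Kcnmb4os2 (adjusted p = 0.05516) passed. With the trend removed, Abhd11os (adjusted p = 0.1794) and Map2k3os (adjusted p = 0.1037) did not pass and Kcnmb4os2 was -0.15 (adjusted p = 0.4896).

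The 5 tested rows of highest mean CPM, which is not scaled for transcript length, were Chd3os, Wdr83os, Fam120aos, Fam219aos and Cep83os, and none lies in partner introns. Wdr83os was 36.8, 57.9, 40.9, 50.02 and 52.1 CPM in vehicle replicates 1 to 5, and 34.4, 36.7, 43.0, 37.3, 36.7 and 30.8 CPM in PM replicates 1 to 6. The groups overlapped, with a log2 fold change of -0.38 (SE 0.12, edgeR adjusted p = 0.01451). The call was lost without vehicle replicate 2 (adjusted p = 0.05123) or PM replicate 6 (adjusted p = 0.07532). Its partner Wdr83, a WD repeat scaffold protein, shares 539 exon bases with it and rose from 5.18 ± 0.585 to 21.4 ± 2.78 CPM (log2 fold change 2.01 with SE 0.12, edgeR-adjusted p = 1.04e-08). The log2 ratio of Wdr83os to Wdr83 was 3.16 in vehicle and 0.77 in PM libraries (difference -2.39, limma adjusted p = 8.659e-08).

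Fam120aos, divergent from the RNA-binding protein gene Fam120a with starts 270 bases apart, was 28.7 to 35.2 CPM in vehicle against 24.7 to 36.5 CPM under PM. The groups overlapped and the row did not pass (log2 fold change -0.08 with SE 0.11, adjusted p = 0.5456), but it was called lower with the trend removed (-0.31, edgeR adjusted p = 0.01018). Fam120a fell from 286 ± 12.4 to 147 ± 17.3 CPM (log2 fold change -0.98 with SE 0.088, edgeR-adjusted p = 3.588e-07). Cep83os, whose start lies 78 bases from that of the centriole gene Cep83, was 23.6 to 33.4 CPM in vehicle, 28.1 to 33.0 CPM in PM set 1 and 20.01 to 24.5 CPM in PM set 2. It did not pass over all libraries (log2 fold change -0.11, adjusted p = 0.4624), and its effect differed between sets (0.14 and -0.44, edgeR adjusted p = 0.0385). With the trend removed Cep83os was 0.87 (SE 0.12, edgeR adjusted p = 1.989e-05), so the reading of this row turns on that setting. Cep83 fell by 0.32 on the log2 scale in the main fit (edgeR adjusted p = 0.002611) and was 0.12 with the trend removed (adjusted p = 0.2174).

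Dlx6os1 and Zeb2os were chosen after their values were seen, because their roles are known. Dlx6os1, also called Evf2, is a long non-coding RNA of interneuron development whose exons lie outside Dlx6, which sits within its span. It was 33.7 to 45.5 CPM in vehicle, 16.6 to 18.2 CPM in PM set 1 and 10.4 to 13.5 CPM in PM set 2. Dlx6os1 fell (log2 fold change -1.43 with SE 0.14, edgeR-adjusted p = 9.329e-07), by a smaller -0.78 with the trend removed (adjusted p = 2.431e-05), and Dlx6 was 2.42 ± 0.576 CPM in vehicle against 2.40 ± 0.689 CPM under PM (log2 fold change -0.11, adjusted p = 0.6563). Summed CPM of the 6 interneuron markers was 634.5 to 703.3 in vehicle and 477.2 to 607.7 in PM libraries, with 2 of the 6 higher, 2 lower and none at 0. Their part in the Dlx6os1 result was not tested. Zeb2os is known to bear on splicing in the 5′ untranslated region of Zeb2, a transcriptional repressor gene. It was 9.68 to 11.01 CPM in vehicle against 3.19 to 4.20 CPM under PM (log2 fold change -1.52 with SE 0.12, edgeR-adjusted p = 9.501e-08). Zeb2 fell from 920 ± 49.96 to 237 ± 34.5 CPM (log2 fold change -1.94 with SE 0.086, edgeR-adjusted p = 1.524e-09).

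Ratios were tested with limma over 2774 opposite-strand pairs, of which 29.2% had a higher and 41.7% a lower ratio in PM. In an os pair the antisense row was the numerator. In any other pair it was the row of lower mean CPM, so the ratios of os and other pairs are not of the same kind. Of 75 os pairs, 16 had a higher ratio, 44 a lower ratio and 15 did not pass, with a median difference of -1.35 on the log2 scale. The other 2699 pairs had a median of -0.21. The median differed in sign with how the antisense row passed the filter. That split rests in part on the PM level of the antisense row itself, so it favours such a difference. The 33 pairs whose antisense row passed through vehicle libraries alone had a lower ratio in 32. The 34 whose row passed in both groups had 15 higher and 10 lower ratios, 9 that did not pass, and a median of 0.20.

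In 5 of the 6 pairs with the largest rise of the ratio the sense gene was lower in PM in both sets. The other was Grin1os, described with the set differences. Lppos overlaps the first bases of Lpp, a focal adhesion protein gene, with starts 81 bases apart, and was 1.80 to 2.71 CPM in vehicle against 2.301 to 4.16 CPM under PM (log2 fold change 0.49, edgeR adjusted p = 0.06233). Lppos passed with DESeq2 size factors (adjusted p = 0.04924), upper-quartile scaling (0.03494), no filter (0.0346), and without PM replicate 1 (0.01737) or 4 (0.03567). Lpp fell from 54.7 ± 2.51 to 12.2 ± 1.89 CPM (log2 fold change -2.16 with SE 0.11, edgeR-adjusted p = 3.059e-09), and the ratio was higher by 2.63 (SE 0.25, limma adjusted p = 4.5e-07). Zfp652os and Mkln1os also begin within 81 and 38 bases of the start of their partners. Neither row passed (log2 fold changes 0.19 and -0.33), while Zfp652, a zinc finger gene, and Mkln1, which encodes muskelin, fell by 1.67 and 1.55, and the ratios were higher by 1.85 and 1.24. With the trend removed Mkln1 was 0.01 (adjusted p = 0.9506). The ratio of Epb4.1l4aos to its partner was higher by 2.19 (SE 0.27, limma adjusted p = 5.095e-06) and that of Kcnmb4os2 by 1.33 (SE 0.24, limma adjusted p = 0.0001487). In these 5 pairs the ratio in every PM library exceeded that in every vehicle library.

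The 6 pairs with the largest fall of the ratio all had over 50% of the antisense exon bases in partner introns, and all 6 antisense rows passed the filter through vehicle libraries alone. Ppp2r2cos lies in introns of Ppp2r2c, a regulatory subunit gene of protein phosphatase 2A. It was 9.78 to 12.6 CPM in vehicle, 0.365, 0.0591 and 0 CPM in PM set 1, and 3.34, 2.11 and 4.25 CPM in PM set 2 (log2 fold change -3.30 with SE 0.63, edgeR-adjusted p = 0.0005169). Ppp2r2c was 412 ± 15.8 CPM in vehicle against 497 ± 104 CPM under PM (log2 fold change 0.28, edgeR adjusted p = 0.01458), at 0.49 in set 1 and 0.01 in set 2 (adjusted p for the difference = 0.007228). The Ppp2r2c call was lost with the trend removed (0.14, adjusted p = 0.3601), with no set covariate (adjusted p = 0.08134), with the replicate block (adjusted p = 0.06279), in set 2 alone (adjusted p = 0.8219) and without the 4 Ttr libraries (adjusted p = 0.1181). The ratio was lower by 4.37 (log2 difference -4.37, SE 0.75, limma adjusted p = 0.0001498). Bcas1os2 lies mainly in introns of Bcas1, a gene of myelinating oligodendrocytes. Bcas1os2 was 3.92 to 7.44 CPM in vehicle against 0.414 to 1.68 CPM under PM (log2 fold change -2.71 with SE 0.37, edgeR-adjusted p = 1.779e-05), while Bcas1 rose from 113 ± 9.49 to 237 ± 69.8 CPM (log2 fold change 1.08, edgeR adjusted p = 0.0001622). Summed CPM of 5 oligodendrocyte markers was 3591 to 4572 in vehicle and 3829 to 8896 in PM libraries, with 4 of 5 higher, and its part in the Bcas1 result was not tested. Tmem150cos was 2.198 to 4.16 CPM in vehicle against 0.0591 to 0.797 CPM under PM (log2 fold change -3.39 with SE 0.44, edgeR-adjusted p = 1.331e-05), and Tmem150c rose by 0.42 on the log2 scale (edgeR adjusted p = 0.0007172). The change in the log2 ratio to the partner was -3.69 for Bcas1os2, -3.79 for Tmem150cos, -4.16 for Bcas3os1, -3.55 for Far1os and -3.43 for Grip1os2.

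**Figure D4:**
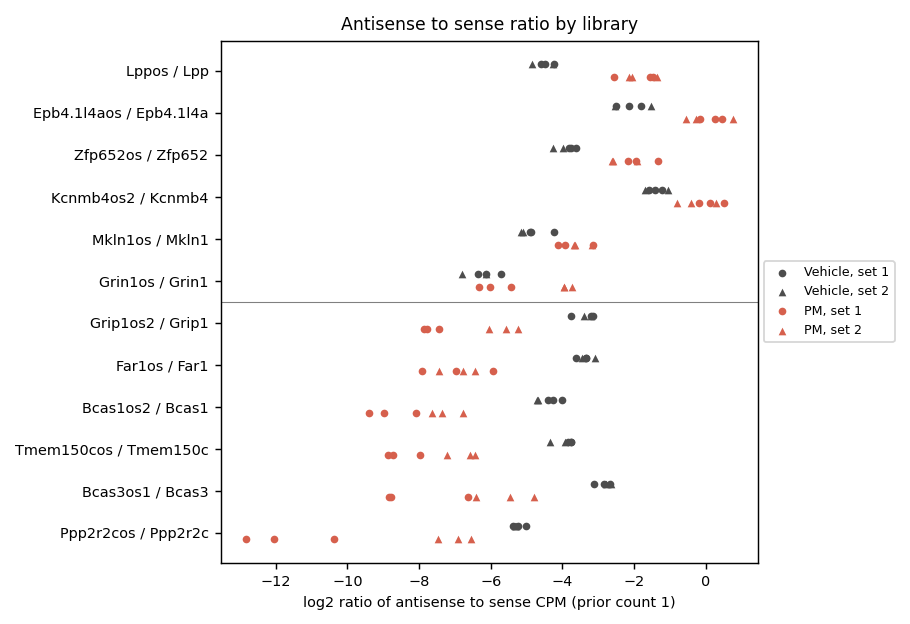
Log2 ratio of antisense to sense CPM (prior count 1, horizontal axis) in each library for the 6 pairs with the largest rise (top) and the 6 with the largest fall (bottom). Points are vehicle (grey) and PM (red) libraries of set 1 (circles) and set 2 (triangles). In Grin1os the PM libraries of set 2 alone are shifted, and in the lower 6 pairs every PM library lies left of every vehicle library.

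The PM effect differed between the sets in 31 of the 76 tested rows (edgeR adjusted p under 0.05), against 29.6% of all rows tested. In 28 of the 31 the effect in set 2 was above that in set 1, and in 3 below, where 17.5% and 12.1% of all rows were called in these directions. In set 1, 7 antisense rows were higher and 50 lower (all rows 32.1% and 38.9%), with a median of -1.65. In set 2, 7 were higher and 36 lower (all rows 32.3% and 32.5%), with a median of -0.60. Of the 76 rows, 33 passed the filter through vehicle libraries alone, a route defined in part by low values in some PM libraries. The filter therefore enters these counts and medians, and they were not taken apart by how the rows passed it. Set and any other difference between the deposits cannot be told apart.

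Prkag2os1 had the smallest p for this difference. It lies opposite Prkag2, a subunit gene of the AMP-activated protein kinase, with 85.7% of its exon bases in introns. In vehicle replicates 1 to 5 it was 10.9, 14.4, 14.9, 13.4 and 9.67 CPM. In PM it was 1.03, 0.650 and 0.645 CPM in set 1 but 11.6, 11.9 and 7.70 CPM in set 2. The set 1 libraries lay below all vehicle libraries, and those of set 2 overlapped them. The log2 fold change was -4.08 (SE 0.26, edgeR adjusted p = 1.291e-09) in set 1 and -0.13 (SE 0.23, adjusted p = 0.6403) in set 2, and the difference was 3.96 (SE 0.36, edgeR adjusted p = 1.113e-05). Prkag2 followed the same order with smaller values, -0.63 in set 1 and -0.13 in set 2 (difference adjusted p = 0.01504).

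Grin1os overlaps Grin1, which encodes the obligatory GluN1 subunit of NMDA receptors, with 45.2% of its exon bases over exons and 54.8% in introns of Grin1. It was 7.29, 4.43, 5.87, 2.94 and 4.95 CPM in vehicle replicates 1 to 5. In PM it was 5.23, 2.19 and 2.01 CPM in set 1 and 21.0, 26.1 and 21.2 CPM in set 2. The set 2 PM libraries stood above all others, and those of set 1 overlapped vehicle or lay below it. The log2 fold change was -0.89 in set 1 (SE 0.32, edgeR adjusted p = 0.02316) and 2.48 in set 2 (SE 0.36, edgeR adjusted p = 4.379e-05), and the difference of 3.38 passed the test (SE 0.49, edgeR adjusted p = 0.0003379). Fitted on set 1 alone, the row was -0.80 and did not pass (adjusted p = 0.0531). Over all libraries Grin1os did not pass (0.54, adjusted p = 0.4238), while the ratio to Grin1 was higher by 1.23 (limma adjusted p = 0.009588), with overlap of the groups. Grin1 was -1.10 in set 1 and -0.04 in set 2 (adjusted p = 0.8284), and its call over all libraries was lost without the 4 Ttr libraries (adjusted p = 0.07118). Grin1os shares 1307 exon bases with Grin1.

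Zfhx2os and Rab11fip4os1 also had the lower effect in set 1, unlike Chd3os and Cep83os, whose effect was lower in set 2. Zfhx2os, of which 73.1% overlaps exons of the zinc finger homeobox gene Zfhx2, was 5.88 to 8.47 CPM in vehicle, 0.118 to 0.425 CPM in PM set 1 and 2.26 to 3.79 CPM in PM set 2. Its log2 fold changes were -4.62 and -1.04 (difference 3.58, edgeR adjusted p = 7.598e-05). Zfhx2 was -1.60 in set 1 and 0.32 in set 2 (edgeR adjusted p for the difference = 0.0001923). Rab11fip4os1, in introns of the endosomal Rab11 effector gene Rab11fip4, was 3.30 to 4.43 CPM in vehicle, 0.122, 0.118 and 0 CPM in PM set 1 and 1.04, 2.04 and 1.86 CPM in PM set 2. Its partner moved the other way between sets, at 0.71 in set 1 and -0.52 in set 2 (edgeR adjusted p for the difference = 3.213e-05). For both antisense rows all PM libraries were below all vehicle libraries. Prkag2os1, Zfhx2os and Rab11fip4os1 passed the filter through vehicle libraries alone, and Grin1os in both groups.

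Of the 78 rows that were not tested, 13 had no count in any library, 29 had between 1 and 19 counts over all 11 libraries, and 36 had 20 or more. Fitted with no filter, 15 of the untested rows were lower and 1 higher, where 27.4% of all 20519 rows were lower and 27.1% higher. The lower share of these rows was thus not above its background. The lower ones included Sox5os3 with 50 counts in all vehicle and 3 in all PM libraries, Atxn7l1os2 with 73 and 8, Nell1os with 44 and 8, Ccdc34os with 30 and 5, and Bcas3os2 with 38 and 11. The higher one was Smc2os, with 17 counts in vehicle and 65 in PM libraries (log2 fold change 1.32, edgeR adjusted p = 0.01281 in the fit with no filter). Uchl1os, whose RNA is known to raise translation of Uchl1 mRNA, had 14 and 40 counts and did not pass (adjusted p = 0.3737), and Gad1os, opposite the GABA synthesis gene Gad1, had 21 and 25 (adjusted p = 0.251). Counts at this depth limit what could be detected for these rows.

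A list of antisense, host and other long non-coding RNAs with other names was read from the same fit. Of 33 listed symbols, 25 were rows of the files and 22 were tested, of which 2 were higher (Gas5 and Pantr1), 13 lower and 7 did not pass (32.7% of all rows tested were higher and 36.4% lower), with a median log2 fold change of -0.79. The list held imprinted, X-inactivation and nuclear RNAs such as Kcnq1ot1, Airn, Meg3, Ftx and Malat1 among the lower, and Sox2ot, Neat1, Miat and Crnde among those that did not pass. Airn, Meg3 and Ftx passed in set 1 but not in set 2. There they were -0.28, 0.23 and -0.27 (edgeR adjusted p = 0.5483, 0.5816 and 0.1057). Neat1 was -0.10 in set 1 (adjusted p = 0.6104) and 1.43 in set 2 (edgeR adjusted p = 2.95e-05). Miat was -1.17 in set 1 (edgeR adjusted p = 0.01295) and 0.80 in set 2 (adjusted p = 0.09905). Snhg14, the long transcript that runs antisense to Ube3a, fell from 57.9 ± 7.61 CPM (SD, n = 5) to 13.5 ± 4.51 CPM in the 6 PM libraries, with a log2 fold change of -2.10. Rmst fell from 12.1 ± 1.60 to 1.67 ± 1.11 CPM (log2 fold change -2.98), Mir99ahg from 14.8 ± 1.86 to 5.16 ± 0.956 CPM, and Jpx, an activator of Xist in development, from 20.9 ± 3.51 to 7.06 ± 2.89 CPM. Pvt1 fell from 25.2 ± 2.64 to 9.36 ± 1.72 CPM and Tug1 from 201 ± 9.18 to 93.4 ± 17.9 CPM. Each of these 6 RNAs passed the edgeR test, and every PM library was below every vehicle library. Gas5, a host gene of small nucleolar RNAs, was 74.99 ± 6.90 CPM in vehicle against 149 ± 42.3 CPM under PM (log2 fold change 1.01, SE 0.14).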

How the data were processed

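RNA sequencing of 11 hippocampus libraries was analysed from the raw counts the authors deposited, as whole numbers for each gene symbol. The submitters' processing notes list HTSeq 0.9.1, STAR, Trimmomatic 0.36, Picard 2.9.2, FastQC 0.11.9 and SAMtools 1.9, with mm10 and hg19 as builds. The labels' protocols describe removal of ribosomal RNA, whereas the molecule field names polyA RNA. No source used here names the counting annotation. HTSeq summary rows stayed out of library sizes and tests. The os rows, lists and groupings were chosen with earlier results of these data known.

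Counts were fitted with edgeR 4.0.16 in R 4.3.3 (TMM scaling, filterByExpr with a minimum count of 10, robust quasi-likelihood test, two-sided, set as covariate). The filter amounted to 0.8 CPM in 5 libraries. Effects by set came from 1 joint fit of group and set. Ratios were fitted with limma 3.58.1 on log2 CPM with a prior count of 1. The reported standard error (SE) of a log2 fold change is its size divided by the square root of F. Positions came from GENCODE release M21 on GRCm38, the assembly of mm10 (98.5% of symbols matched). Named rows were the 10 largest rises and 10 largest falls of the same sign in both sets (8 rises qualified), the 5 of highest mean CPM, 6 set differences and 6 ratio changes in each direction, with partners. Replicates of 1 group were compared by chi-square per degree of freedom, lowest for vehicle replicates 1 and 3 (2.009), and none was merged. Alternatives were DESeq2 1.42.0, other scalings and filters, no set covariate, a replicate block, each set alone, removal of a length and GC trend, other prior counts, and leaving out libraries. The scripts were tested on simulated data.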

Additional observations from a re-analysis of the deposited data

Results flagged for a closer look

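In PM libraries, replicate 5 stood apart from the other 5 in Map2k3os, at 1.09 CPM with the nearest at 1.48 CPM, and in Slc7a6os, at 25.3 CPM with the nearest at 21.2 CPM. These were 2 of 62 groups examined, and chance flags about 1 in 20 such groups.

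The PM effect differed between sets by the interaction test of edgeR in these named rows, given as the log2 fold change in set 2 minus that in set 1. It was negative for Chd3os at -0.68 (adjusted p = 0.006027) and Cep83os at -0.58 (adjusted p = 0.0385). It was positive for Prkag2os1 at 3.96 (adjusted p = 1.113e-05), Zfhx2os at 3.58 (adjusted p = 7.598e-05), Ppp2r2cos at 4.53 (adjusted p = 9.513e-05), Nrg3os at 3.51 (adjusted p = 0.0001273) and Rab11fip4os1 at 4.24 (adjusted p = 0.0002794). Dnm3os differed by 2.55 (adjusted p = 0.0003117), Grin1os by 3.38 (adjusted p = 0.0003379), Grip1os1 by 4.91 (adjusted p = 0.0007595), Bcas1os2 by 2.27 (adjusted p = 0.001384) and Tmem150cos by 2.88 (adjusted p = 0.003821). Grip1os2 differed by 3.84 (adjusted p = 0.008175), Bcas3os1 by 2.94 (adjusted p = 0.01384), Arhgap20os by 2.09 (adjusted p = 0.02078) and Trpc5os by 2.64 (adjusted p = 0.03942). Where PM libraries of set 1 hold 0 counts, as in Trpc5os, Grip1os1, Grip1os2, Bcas3os1, Ppp2r2cos and Rab11fip4os1, the size of the fitted difference depends on the prior count.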

How the results depend on the processing

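The counts of antisense rows called lower stayed within 1.5 times the reported 47 under every alternative run. The count called higher was 5 without the libraries above 200 CPM of Ttr (chosen after seeing the data), and 5 to 11 when single libraries were left out, the lowest without vehicle replicate 3. The medians that moved were those of the antisense rows in set 2 alone (-0.58) and of the partners with upper-quartile scaling (-0.25), no filter (-0.23), set 1 alone (-0.22), set 2 alone (-0.16) and the length and GC trend removed (-0.036), where 36 partners were lower. Across scalings the median of all rows ran from -0.04 (4904 higher, 5450 lower) to 0.07 with the trend removed (5403 higher, 4239 lower).

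Some log2 fold changes reversed in sign. Fam120aos was 0.0038 with upper-quartile scaling, 0.018 with no filter and 0.095 in set 1 alone. Slc7a6 was 0.010 with no filter, 0.18 with no set covariate, 0.84 in set 2 alone, 0.086 with the trend removed, 0.00084 without the Ttr libraries, and -0.30 to 0.068 when single libraries were left out. In set 1 alone Cep83os was 0.24, Grin1os -0.80 and Sp3 0.0017, and in set 2 alone Zfhx2 was 0.33 and Rab11fip4 -0.51. With the trend removed Kcnmb4os2 was -0.15, Cep83os 0.87, Zfp652os -0.12, Fam219a -0.31, Sp3 0.21, Map2k3 -0.031, Far1 0.21, Rsf1 0.30, Cep83 0.12 and Mkln1 0.0071. Without the Ttr libraries Cep83os was 0.029. The cause was not tested.

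Same-numbered samples did not deviate together (correlations -0.1755 to -0.005012, none best with its own number), so pairing is not established. With the replicate number as a block, 6 antisense rows were higher and 45 lower with a median of -1.42, and 14 pairs had a higher and 42 a lower ratio. Map2k3os, Kcnmb4os2 and Wdr83os then missed the threshold.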
